A study of Drosophila melanogaster with 2 samples.

Results

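Nuclear transfer RNA (tRNA) genes were examined in a map of where the protein encoded by CG6276 lay on chromatin of Drosophila melanogaster prepupae. The members were all genes that Ensembl release 115 (BDGP6.54) annotates with the biotype tRNA on chromosomes 2L, 2R, 3L, 3R, 4 and X, and every one of their symbols began with tRNA. There were 290 of them among 23973 annotated genes. No binding value entered the rule for membership, but the class was chosen with earlier results of these data known. Chromatin immunoprecipitation followed by sequencing was done on whole prepupae, males and females pooled, of a transgenic strain in which CG6276 carries green fluorescent protein (eGFP) at its C-terminus, with an antibody against GFP. The labels give 1 group with 2 biological replicates, numbered 2 and 4, state the age as 72 day, and give a sonication size range of 200 to 800 bp. They do not say which promoter drives the fusion, nor whether the untagged CG6276 gene is still present, and whole animals mix all tissues. No untagged or input library was analysed here, so a peak is a place where the authors' caller reported enrichment. The lists were made with a further file that the sources used here do not describe, and whether it was a control is not known.

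tRNA genes are short genes transcribed by RNA polymerase III. Their promoter lies inside the transcribed sequence, in an A box and a B box that are bound by the factor TFIIIC. TFIIIC then places TFIIIB just upstream of the gene, and TFIIIB recruits the polymerase, which stops at a run of T after the gene. In flies, as in other animals, many tRNA genes are present in identical copies and stand in small clusters or within introns of other genes.

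The 290 genes ran from 71 to 186 bases, with a median of 73 bases, and carried 45 anticodons of 22 isotypes, counting initiator methionine (iMet) and selenocysteine (SeC) as isotypes of their own. Of the genes, 156 were intergenic, 127 lay in introns of protein-coding genes and 7 overlapped protein-coding exons. A B box core, GTTCNANNC, was found in 271 genes (93.4%). Among windows of each gene's own length that ended 500 bp upstream of its start, 6 held the core (2.07%). TTTT occurred within 30 bases after the end of 277 genes. These features of RNA polymerase III genes went with the annotated biotype.

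The genes below are shown because the strongest peaks lay at them, or because the peak summit fell inside or beside the gene. Each is written 5′ to 3′ on its transcribed strand from the dm6 genome sequence, with the B box core in capitals, and with the A box pattern (TNGC, any 2 bases, AG, any 2 bases, G) in capitals in the genes that hold it. The A box pattern was found in tRNA:Tyr-GTA-1-8 and tRNA:Leu-TAA-2-1 and not in the letters of the others.
tRNA:Tyr-GTA-1-8 (chr3R:8669081-8669174, minus strand): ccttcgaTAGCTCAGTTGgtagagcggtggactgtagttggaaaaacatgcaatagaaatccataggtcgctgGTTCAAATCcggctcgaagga
tRNA:Pro-TGG-1-2 (chr3R:17619961-17620032, plus strand): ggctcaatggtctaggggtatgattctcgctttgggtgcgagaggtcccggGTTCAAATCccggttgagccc
tRNA:Gln-TTG-1-3 (chr3R:26947512-26947583, minus strand): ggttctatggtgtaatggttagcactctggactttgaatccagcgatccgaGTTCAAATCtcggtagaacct
tRNA:Leu-TAA-2-1 (chr3R:24112964-24113047, plus strand): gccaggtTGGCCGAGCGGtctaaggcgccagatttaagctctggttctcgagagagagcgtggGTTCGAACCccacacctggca
tRNA:Arg-TCG-2-4 (chr3R:8862933-8863005, plus strand): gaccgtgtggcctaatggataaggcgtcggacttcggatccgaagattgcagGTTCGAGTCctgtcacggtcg
tRNA:Val-TAC-1-1 (chr3L:5356343-5356415, plus strand): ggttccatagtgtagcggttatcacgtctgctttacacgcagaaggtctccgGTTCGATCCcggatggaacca

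Windows reaching 100 bases to each side of the summit, at 4 of these peaks, show how differently the summits sat relative to the genes. They are written on the plus strand of dm6, with bases that belong to any annotated tRNA gene in capitals.
Summit near tRNA:Tyr-GTA-1-8 (chr3R:8669271-8669471, plus strand): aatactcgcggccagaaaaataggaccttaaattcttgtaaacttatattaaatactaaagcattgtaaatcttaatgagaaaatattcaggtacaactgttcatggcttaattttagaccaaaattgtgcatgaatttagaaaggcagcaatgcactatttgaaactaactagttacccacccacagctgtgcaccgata
Summit near tRNA:Pro-TGG-1-2 (chr3R:17619768-17619968, plus strand): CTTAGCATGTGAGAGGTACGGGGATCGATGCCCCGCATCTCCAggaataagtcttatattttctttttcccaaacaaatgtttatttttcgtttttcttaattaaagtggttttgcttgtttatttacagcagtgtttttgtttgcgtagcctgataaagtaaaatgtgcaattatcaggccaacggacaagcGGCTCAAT
Summit near tRNA:Gln-TTG-1-3 (chr3R:26947457-26947657, plus strand): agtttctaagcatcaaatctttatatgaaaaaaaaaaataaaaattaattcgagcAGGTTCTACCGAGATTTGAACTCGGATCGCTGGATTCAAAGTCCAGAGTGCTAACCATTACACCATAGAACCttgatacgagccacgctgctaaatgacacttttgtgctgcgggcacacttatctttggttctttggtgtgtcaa
Summit near tRNA:Arg-TCG-2-4 (chr3R:8862868-8863068, plus strand): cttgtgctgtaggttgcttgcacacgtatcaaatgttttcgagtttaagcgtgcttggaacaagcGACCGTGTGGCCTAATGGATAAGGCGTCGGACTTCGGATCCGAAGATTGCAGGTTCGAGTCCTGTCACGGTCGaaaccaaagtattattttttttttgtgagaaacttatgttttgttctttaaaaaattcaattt
The window near tRNA:Tyr-GTA-1-8 held no tRNA base, because that summit lay 197 bp upstream of the gene. The window near tRNA:Pro-TGG-1-2 held 51 tRNA bases at its edges, from the start of that gene and from its neighbour. The other windows held a whole tRNA gene of 72 bases (tRNA:Gln-TTG-1-3) or 73 bases (tRNA:Arg-TCG-2-4), with the summit inside it.

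Of the 290 tRNA genes, 48 had a summit of the thresholded list within 500 bp of their start. That list holds the 7326 peaks the authors kept by the irreproducible discovery rate (IDR) procedure, which asks how well peaks rank alike in both replicates, and a gene with such a summit is named called here. The share was 16.6% (95% Wilson interval 12.7 to 21.3%) for tRNA genes, against 10.6% of 13945 protein-coding genes and 7.86% of all 23683 other annotated genes, which include 5809 transposable elements. Among ncRNA genes 9.54% of 3261 were called. Intervals cover counting error only, neighbouring tRNA genes can share a peak, and no test was made, so the shares are descriptions. Counted by locus, where tRNA gene starts at most 1000 bp apart form 1 locus, 30 of 175 tRNA loci (17.1%, 12.3 to 23.4%) had a called gene.

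The gap between tRNA genes and other genes was wider in the longer lists. The pooled list of 30000 peaks, which the authors label as peaks together with background, had a summit at 151 tRNA genes (52.1%, 46.3 to 57.8%), against 21.6% of protein-coding genes and 17.6% of all other genes. In the replicate 2 list, also of 30000 peaks, the count was 156 tRNA genes (53.8%, 48 to 59.4%), against 25.7% of protein-coding and 20.2% of all other genes. The replicate 4 list, of the same length, had summits at 131 tRNA genes (45.2%, 39.5 to 50.9%), against 21.8% and 18% of these genes. The tRNA share was above the share of other genes in each of the 4 lists, and 111 tRNA genes had no summit in any of them.

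**Figure D1:**
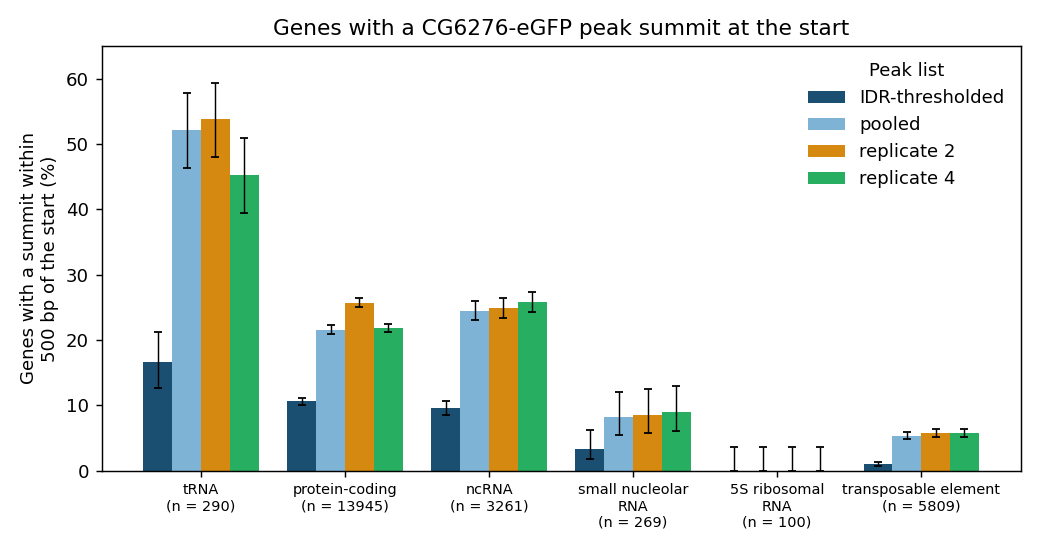
Percent of genes with a peak summit within 500 bp of the gene start (vertical axis) for tRNA genes and 5 other gene classes, in the IDR-thresholded, pooled, replicate 2 and replicate 4 lists; error bars are 95% Wilson intervals. tRNA genes stand at 16.6% in the thresholded list and 52.1% in the pooled list, above the other classes drawn, and 5S ribosomal RNA genes are at 0 in every list.

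The share of tRNA genes relative to other genes changed with peak strength. With the pooled peaks ranked by the authors' signal value, the strongest 1000 held a summit at 0.345% of tRNA genes, a single gene, against 2.6% of protein-coding genes and 1.79% of all other genes. The strongest 2500 covered 4.14% of tRNA genes, against 4.64% of protein-coding genes and 3.28% of all other genes. The strongest 5000 covered 10.3% of tRNA genes, against 7.73% and 5.68%. Beyond that tRNA and protein-coding genes parted, with 26.9% against 13.1% at 10000 peaks, 35.5% against 16.4% at 15000 and 44.1% against 18.5% at 20000. tRNA genes came below protein-coding genes up to the strongest 2500 peaks and above them from the strongest 5000 on, and above all other genes from the strongest 2500 on.

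The 33 distinct thresholded peaks at tRNA genes had a median signal value of 210.3, against 251.5 for the whole list, and 13 of the 33 were above that list's median. Their values ran from 141.6 to 1589, while the whole list reached 4951. In the pooled list the 137 distinct peaks at tRNA genes had a median of 78.35, against 70.35 for the list. The replicate 2 medians were 46.11 for 143 tRNA peaks against 38.85 for the list, and those of replicate 4 were 43.91 for 123 tRNA peaks against 39.11. Signal values are scores of the authors' caller and are comparable only within a list.

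Summits stood more densely at tRNA gene starts than farther out, but the neighbourhood of tRNA genes was itself rich in peaks. In the pooled list there were 0.721 summits per gene per kb within 500 bp of tRNA starts and 0.429 per gene per kb over 2000 and up to 3000 bp away, a ratio of 1.68. Protein-coding starts had 0.278 and 0.172, a ratio of 1.62. The thresholded list gave 0.179 and 0.117 for tRNA genes, a ratio of 1.53, against 0.117 and 0.0529 for protein-coding genes, a ratio of 2.22. Relative to their own surroundings, the density at tRNA starts was about as high as that at protein-coding starts in the pooled list. It was lower in the thresholded list. The replicate lists differed in direction, with 1.97 for tRNA genes against 1.79 for protein-coding genes in replicate 2, and 1.37 against 1.63 in replicate 4.

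Clustering of tRNA genes enters these ratios, since a flank of one gene can hold the start of the next. Over the 84 tRNA genes with no other tRNA start within 3500 bp, the pooled densities were 0.452 at the start and 0.292 in the flanks, a ratio of 1.55, and 30 of the 84 genes had a pooled summit. In the thresholded list the same genes had 0.0952 and 0.0893 summits per gene per kb, a ratio of 1.07, from 8 called genes. The thresholded ratio was also 1 over the 167 tRNA genes that start over 2000 bp from any protein-coding transcript start (0.138 and 0.138), against 1.24 for 1819 ncRNA genes at such distances (0.0852 and 0.0687). In the pooled list these far tRNA genes had a ratio of 1.5 (0.766 and 0.512) and the far ncRNA genes 1.06 (0.326 and 0.306). Away from protein-coding starts the density at tRNA starts was above that of their flanks in the pooled list and equal to it in the thresholded list. The replicate lists gave 1.58 and 1.24 for the far tRNA genes in replicates 2 and 4, against 1.03 and 1.05 for the far ncRNA genes.

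**Figure D2:**
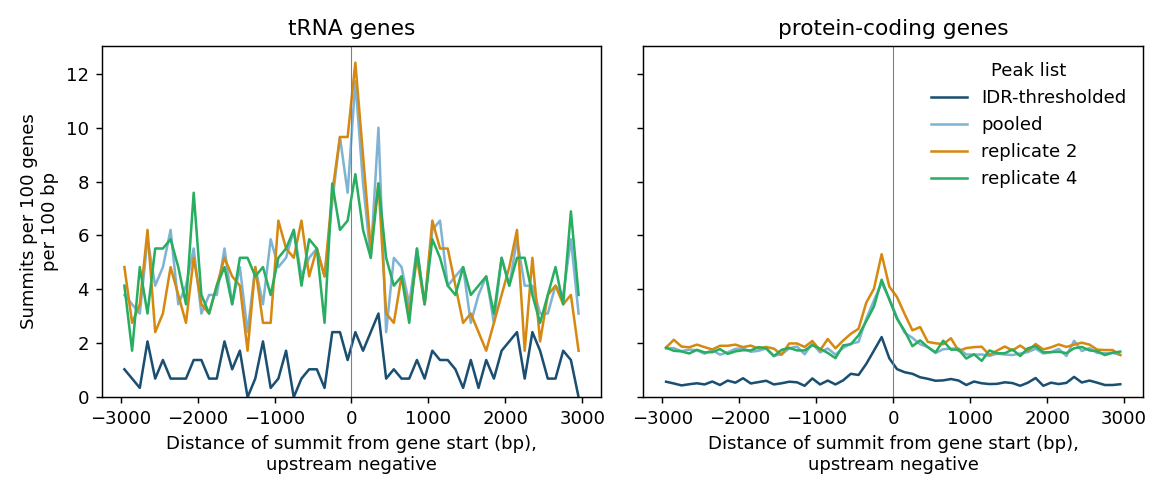
Peak summits per 100 genes in bins of 100 bp (vertical axis) by distance from the gene start, upstream negative (horizontal axis, bp), for tRNA genes on the left and protein-coding genes on the right, with 1 line per peak list. Pooled summits at tRNA genes reach 0.721 per gene per kb within 500 bp of the start over flanks of 0.429, and protein-coding genes 0.278 over 0.172.

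Over all tRNA genes, the summits straddled the starts. In the pooled list the nearest summit lay upstream of the start at 73 tRNA genes and at or downstream of it at 78, with a median offset of 13 bp along the direction of transcription and quartiles of -153.5 and 119.5 bp. Protein-coding genes had 1826 upstream and 1181 at or downstream, with a median of -66 bp. In the thresholded list tRNA genes had 20 upstream and 28 at or downstream, a median of 40.5 bp, against 958 and 521 and a median of -105 bp for protein-coding genes. The medians were -11.5 bp in replicate 2 and 19 bp in replicate 4 for tRNA genes, against -57 and -64 bp for protein-coding genes. Clustered tRNA genes can share a summit. Of the 84 tRNA genes with no other tRNA start within 3500 bp, 19 had the nearest pooled summit upstream and 11 at or downstream. Their pooled median was -91.5 bp. For these genes the medians were -134 bp in replicate 2 (22 upstream, 11 not) and -22 bp in replicate 4 (15 and 14). In the thresholded list it was 283.5 bp (3 and 5). With genes of about 73 bases and fragments of 200 to 800 bp, an offset of this size does not separate the gene from its flank.

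tRNA:Tyr-GTA-1-8 had the strongest peak of all tRNA genes. It is a tyrosine tRNA gene with an intron (FBgn0012024, chromosome 3R, 8669081 to 8669174, minus strand) and stands in introns of CG8036 and p, the pink gene needed for eye pigment granules. Its peak (3R, 8669193 to 8669545) had a signal value of 1589, rank 134 of the thresholded list, and the matching peaks had 791.8 in replicate 2 and 791.4 in replicate 4, ranks 156 and 123. The summit lay 197 bp upstream of the tRNA start and 247 bp from a transcript start of CG8036, so that it was near both. Every other tRNA peak had a thresholded signal value of 565.4 or less.

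The second strongest peak lay between a proline and an alanine tRNA gene. It (3R, 17619729 to 17620025, 565.4, rank 1196) had its summit 93 bp upstream of tRNA:Pro-TGG-1-2, and tRNA:Ala-AGC-2-2 and tRNA:Ala-AGC-2-3 also started within 500 bp. Its replicate signal values were 342.6 in replicate 2 and 229.5 in replicate 4, and the nearest protein-coding start, of CG14326, was 768 bp away. tRNA:Phe-GAA-1-6, a phenylalanine tRNA gene, had a pair of overlapping thresholded peaks 476 and 270 bp upstream, with signal values of 476.1 and 218.7. Values of 200.96 in replicate 2 and 275.9 in replicate 4 came from a peak that overlapped both, and the nearest protein-coding start (Dip-B, a dipeptidase gene) was 14712 bp from the stronger summit. These peaks at proline and phenylalanine tRNA genes had no protein-coding start within 500 bp of the summit.

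Of the 12 strongest tRNA peaks, 6 had a protein-coding start within 500 bp and 6 had none. A peak on 2R (11652194 to 11652643, 412.4) had its summit 20 bp into tRNA:Arg-TCT-1-1, within 500 bp of the start of tRNA:Met-CAT-1-1 and 562 bp from a start of CG34228, and values of 217.01 in replicate 2 and 197.3 in replicate 4. The peak at tRNA:Lys-TTT-1-1 (2L, 8290923 to 8291167, 382.7; 222.3 and 169.0 in replicates 2 and 4) lay 346 bp downstream of its start, in an intron of Btk, a tyrosine kinase gene of the opposite strand whose nearest start was 6051 bp away. A peak shared by the glutamine genes tRNA:Gln-TTG-1-3 and tRNA:Gln-TTG-1-2 (3R, 26947332 to 26947781, 380.1; 217.01 and 184.3) had its summit 26 bp into tRNA:Gln-TTG-1-3 and 273 bp from Spag1. All of these were present in both replicate lists.

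tRNA:Val-CAC-2-5, a valine tRNA gene, had the strongest of the thresholded tRNA peaks that overlapped a replicate 2 peak and no replicate 4 peak. Its peak (3R, 19671753 to 19671976, 379.0) overlapped a replicate 2 peak of 178.7 and no replicate 4 peak, and its summit was 469 bp downstream of tRNA:Val-CAC-2-5 and 430 bp from Naam, a nicotinamidase gene. tRNA:Leu-TAA-2-1 (3R, 24112714 to 24112870, 348.0; 212.0 and 148.2 in replicates 2 and 4) had its summit 195 bp upstream and 380 bp from CG13605. tRNA:Arg-TCG-2-4, which overlaps an exon of the junction protein gene pyd on the opposite strand, had a peak of 326.9 with the summit 35 bp into the gene (154.9 and 150.7 in replicates 2 and 4) and another of 201.9 at 236 bp. The peaks at the leucine and arginine genes were present in both replicate lists, and that at the valine gene in replicate 2 alone.

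The rest of the 12 were at aspartate, arginine and isoleucine genes. tRNA:Asp-GTC-1-5 and tRNA:Asp-GTC-1-4, beside the axon guidance gene Sema1a (start 288 bp from the summit), had 326.5 in the thresholded list, 164.1 in replicate 2 and 166.6 in replicate 4. tRNA:Arg-CCT-1-2 and tRNA:Arg-CCT-1-3 shared a peak of 297.0 (140.2 and 166.0 in replicates 2 and 4), 4449 bp from CG16898. tRNA:Ile-AAT-1-3 had a peak of 270.8 (167.4 and 118.5) whose summit was 236 bp from a start of the phospholipid flippase gene ATP8A. Over all 33 peaks, those with a protein-coding start within 500 bp had a median of 270.8 (11 peaks) and those without one 199.5 (22 peaks).

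Peaks were shared within clusters. Of the 33 thresholded peaks, 18 lay at 1 tRNA gene, 11 at 2 genes and 4 at 3 genes, so that 32 of the 48 called genes were under a shared peak, and 4 genes had 2 peaks. All 33 overlapped a replicate 2 peak and 29 overlapped a replicate 4 peak. The 4 without a replicate 4 peak were nearest to tRNA:Val-CAC-2-5, tRNA:His-GTG-1-3, tRNA:Tyr-GTA-1-4 and tRNA:Pro-TGG-1-5. The sources used here do not say how such peaks passed the thresholding.

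The replicates listed largely overlapping sets of tRNA genes. Both lists had a summit at 111 genes, which was 71.2% of the replicate 2 genes and 84.7% of the replicate 4 genes, while 45 genes had one in replicate 2 alone and 20 in replicate 4 alone. The strongest summit seen in replicate 2 alone (243.9, rank 1657) was shared by tRNA:Trp-CCA-2-2 and tRNA:Gly-GCC-1-9, named after their values were seen, which had a pooled value of 118.8 and were not called. The 48 called genes were all in the replicate 2 list and 43 of them in the replicate 4 list. Over the 111 genes the signal values of the replicates had a Spearman correlation of 0.743, given as a description because neighbouring genes share peaks. Values ran from 18.8 to 792 in replicate 2, with a median of 62.7, and from 21.0 to 791 in replicate 4, with a median of 51.9.

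**Figure D3:**
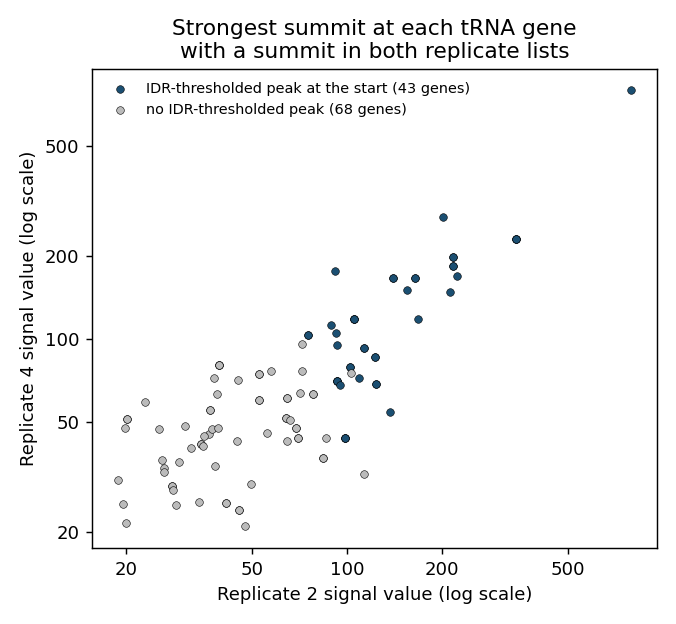
Signal value of the strongest summit within 500 bp of each tRNA gene in replicate 2 (horizontal axis, log scale) and replicate 4 (vertical axis, log scale) for the 111 genes with a summit in both lists. The 43 dark points have an IDR-thresholded peak and sit toward the upper right; the point far from the others is tRNA:Tyr-GTA-1-8, at 791.8 and 791.4.

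A further 103 tRNA genes had a pooled summit and no thresholded one, and 64 of these had a summit in both replicate lists. Their pooled signal values ran from 34.0 to 133, with a median of 74.0, all below the lowest value of the thresholded list, 139. The thresholded list is made of exactly the strongest 7326 pooled peaks. The highest of the 103 were tRNA:Asn-GTT-1-7 and tRNA:Asn-GTT-1-8, which were named after their values were seen and shared a peak of 133.4.

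Clustered tRNA genes had summits more often than lone ones, up to loci of 3 genes. Among the 107 loci of 1 gene, 10 were called in the thresholded list (9.35%, 5.16 to 16.4%) and 38 had a pooled summit (35.5%, 27.1 to 44.9%). The thresholded share of these lone genes was near that of all other genes (7.86%), ncRNA genes (9.54%) and protein-coding genes (10.6%). Their pooled share was above those of the same classes (17.6%, 24.4% and 21.6%). Loci of 2 genes had 10 of 42 (23.8%) in the thresholded list and 28 (66.7%) in the pooled one, and loci of 3 genes had 8 of 16 (50%, 28 to 72%) and 14 (87.5%). Among the 10 loci of 4 or more genes, 2 were called (20%, 5.67 to 51%) and 8 had a pooled summit (80%). A longer locus offers more bases within 500 bp of a start, so these shares are not per base.

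The largest loci were mostly outside the thresholded list, as were most tRNA genes. The locus of arginine and serine genes from tRNA:Arg-TCG-2-1 to tRNA:Arg-TCG-3-4 (X, 14014814 to 14017284) had no called gene among its 7, with 4 in the pooled list, 2 in replicate 2 and 3 in replicate 4. The locus from tRNA:Ile-AAT-1-3 to tRNA:Leu-CAA-1-1 in ATP8A (2R, 13430282 to 13432794) also held 7 genes, of which 1 was called, 6 had a pooled summit, 6 a replicate 2 summit and 7 a replicate 4 summit. The loci of 6 genes from tRNA:Asn-GTT-1-10 to tRNA:Arg-ACG-1-10 (3R, 8139533 to 8141042) and from tRNA:Cys-GCA-1-1 to tRNA:Cys-GCA-1-4 (3L, 3095737 to 3097590) had no called gene, but 5 and 1 genes with a pooled summit. In loci of 4 or more genes, 2 of 51 genes were called (3.92%, 1.08 to 13.2%). That interval holds the 7.86% of all genes other than tRNA genes.

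Valine and leucine had the most called genes, with 6 each. There were 6 of 15 valine genes and 6 of 22 leucine genes, then 5 of 17 alanine, 5 of 19 glutamate, 4 of 26 arginine, and 3 each of 12 glutamine, 17 proline and 10 tyrosine genes. Aspartate had 2 of 14, isoleucine 2 of 11, phenylalanine 2 of 8 and initiator methionine 2 of 6. Glycine (of 20), histidine (of 5), lysine (of 19), elongator methionine (of 6) and serine (of 20) had 1 each. Asparagine, cysteine, threonine, tryptophan and selenocysteine had none, of 10, 7, 17, 8 and 1 genes. Over all isotypes 16.6% of tRNA genes were called, against 7.86% of all other genes. These are counts of genes and not of peaks. Of the 15 peaks shared by several tRNA genes, 10 lay at genes of 1 isotype. With so few genes the intervals are wide, from 19.8 to 64.3% for valine and from 0 to 18.4% for threonine. They treat genes under a shared peak as separate. No test of isotypes was made.

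**Figure D4:**
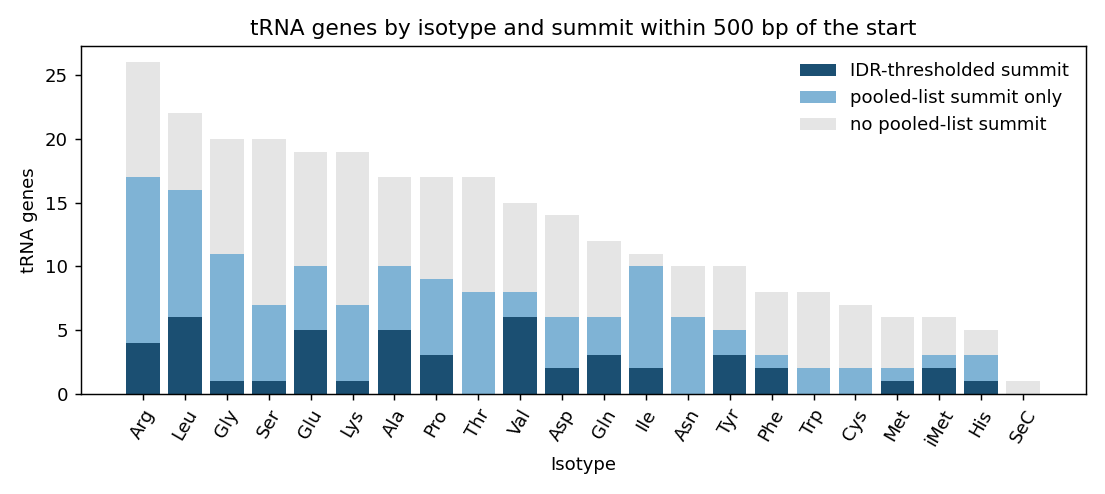
Number of tRNA genes of each isotype (vertical axis) with an IDR-thresholded summit, a pooled-list summit only or no pooled-list summit within 500 bp of the start. Arginine has 17 of 26 genes with a pooled summit, isoleucine 10 of 11 and serine 7 of 20.

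In the pooled list the isotypes lay differently. Isoleucine had a summit at 10 of 11 genes, leucine at 16 of 22 and arginine at 17 of 26, while serine had 7 of 20 and tryptophan 2 of 8. Threonine and asparagine, with no called gene, had pooled summits at 8 of 17 and 6 of 10 genes. By anticodon, which is the base triplet that reads the codon, Leu-CAG had 5 of 8 genes called, in a pair of neighbouring loci on 3L, whereas Arg-ACG had 8 of 10 genes in the pooled list and none in the thresholded list. All 8 Ser-AGA genes lacked a pooled summit, as did the selenocysteine gene. Of these, tRNA:Ser-AGA-2-4 (102.8 in replicate 2 and 75.5 in replicate 4) and tRNA:SeC-TCA-1-1 (34.0 and 25.8) had a summit in both replicate lists. These anticodons were picked out after their counts were seen.

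The strongest called gene of the isotypes not yet named was weaker than those above. tRNA:His-GTG-1-3 had 244.2, with 136.0 in replicate 2. tRNA:Glu-CTC-1-1 and tRNA:Glu-TTC-1-2 shared 200.2, and tRNA:Gly-TCC-1-1 had 194.2. tRNA:Ser-CGA-1-4 had 171.2, from a peak it shared with tRNA:Val-AAC-2-1 and tRNA:Val-AAC-2-2, and tRNA:iMet-CAT-1-1 had 147.3, from one shared with tRNA:iMet-CAT-1-2 and tRNA:Glu-TTC-1-4. Valine was named before, and tRNA:Val-TAC-1-1 and tRNA:Val-TAC-1-2 are added because the sequence of tRNA:Val-TAC-1-1 is printed above. Their shared summit lay 92 bp downstream of the start of tRNA:Val-TAC-1-1, just past its end. It had 229.1 in the thresholded list, 122.3 in replicate 2 and 86.2 in replicate 4.

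Protein-coding starts lay near some of these peaks. Of the 33 thresholded peaks at tRNA genes, 11 (33.3%, 19.8 to 50.4%) had a protein-coding transcript start within 500 bp of the summit, against 29.0% of the 7293 other thresholded peaks. The other 22 did not, and these served 37 of the 48 called genes. Of the 33, 16 were over 1000 bp and 9 over 5000 bp from any protein-coding start. Among the 11 peaks near both kinds of start, the summit was closer to the tRNA start for 7. For the other 22 the rule that chose the peaks fixes the tRNA start as the closer one. Where both starts are within 500 bp the peak cannot be given to either gene.

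The strongest peaks over 1000 bp from a protein-coding start were those at tRNA:Phe-GAA-1-6, tRNA:Lys-TTT-1-1 and the Arg-CCT pair, given above. The next were tRNA:Ala-TGC-2-1 on 2R (257.4, with 91.5 in replicate 2 and 176.2 in replicate 4), with the summit 2158 bp from CG10939, and the leucine genes tRNA:Leu-CAG-1-2, tRNA:Leu-CAG-1-3 and tRNA:Leu-CAG-1-4 on 3L (210.3, with 104.9 and 118.3), with the summit 1704 bp from bip1. These peaks were present in both replicate lists.

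tRNA genes that start near a protein-coding start were called most often. Within 500 bp of one, 11 of 32 tRNA genes (34.4%, 20.4 to 51.7%) were called, against 13% of 547 ncRNA genes at that distance. Over 500 and up to 2000 bp away, 15 of 91 tRNA genes (16.5%) were, against 10.7% of ncRNA genes. Over 2000 bp away, 22 of 167 tRNA genes (13.2%, 8.86 to 19.1%) were, against 7.92% of 1819 ncRNA genes (6.76 to 9.25%). The pooled list showed no such fall with distance, with 50%, 45.1% and 56.3% of tRNA genes from the nearest to the farthest class, against 26.7%, 23.1% and 24.4% of ncRNA genes. In each class and list the share of tRNA genes was above that of ncRNA genes, although the intervals overlapped in the thresholded list over 500 bp.

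**Figure D5:**
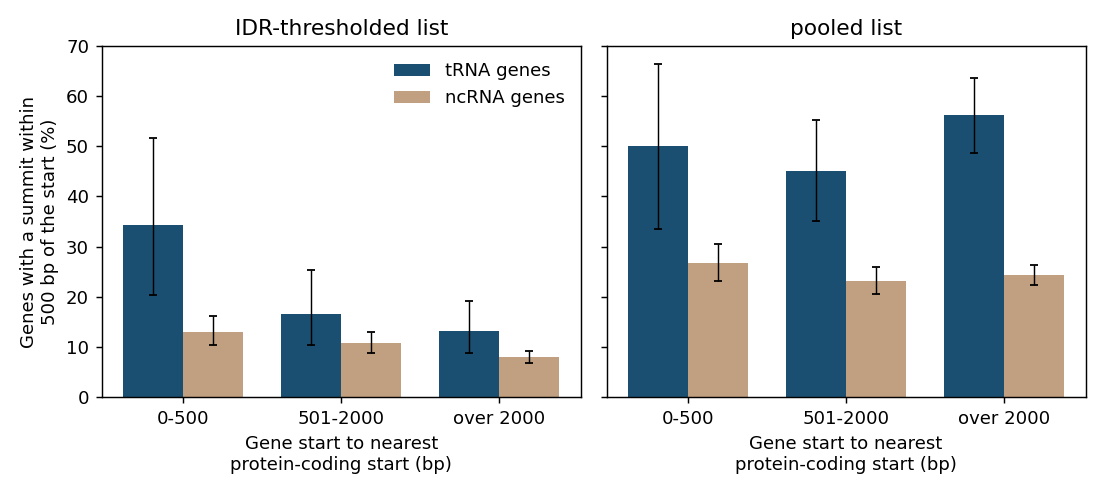
Percent of tRNA genes and ncRNA genes with a summit within 500 bp of the gene start (vertical axis) by distance from the gene start to the nearest protein-coding transcript start (horizontal axis, bp), in the IDR-thresholded list on the left and the pooled list on the right; error bars are 95% Wilson intervals. The thresholded share of tRNA genes is 34.4% nearest to protein-coding starts and 13.2% over 2000 bp away, while the pooled share is 50% and 56.3%.

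By chromosome, 19 of 98 tRNA genes were called on 2R, 16 of 79 on 3R, 8 of 48 on 3L, 3 of 41 on 2L and 2 of 24 on X, and chromosome 4 held no tRNA gene. Pooled summits stood at 54, 45, 21, 21 and 10 of these genes. The intervals of the called shares were wide and overlapped, with 12.8 to 28.3% on 2R, 2.52 to 19.4% on 2L and 2.32 to 25.8% on X. Shares of all genes by chromosome are not given here, so no difference between chromosomes is read from these counts. Of the intergenic tRNA genes 30 of 156 were called (19.2%), and of those in introns of protein-coding genes 17 of 127 (13.4%), with overlapping intervals (13.8 to 26.1% and 8.53 to 20.4%).

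Repeated sequence limits what reads can show at these genes. The 290 genes have 95 distinct sequences, up to 13 genes share 1 sequence, and the median gene has no 31-base word that occurs only once in the genome. The flanks are more distinct, with a median of 89.5% of such words unique within 250 bp of the start. That median was 89.8% for called genes, 89.2% for genes with a pooled summit only and 89.6% for genes with none. The 52 genes with a sequence of their own were called in 10 cases (19.2%), and the 238 that share theirs in 38 (16%); the pooled shares were 50% and 52.5%. The sources used here do not say how the authors placed reads that match several sites.

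No summit was seen at the few genes with the most repeated flanks. In 9 genes at most 50% of the words around the start were unique, and none of the 9 had a summit in any list. Of all 290 tRNA genes, 111 had none. They were a serine gene (tRNA:Ser-AGA-2-3), glutamate genes in the phosphatase gene Ptp61F (tRNA:Glu-CTC-3-5, tRNA:Glu-CTC-3-6 and tRNA:Glu-CTC-3-7), lysine genes (tRNA:Lys-TTT-2-2 and tRNA:Lys-TTT-2-3) and arginine genes (tRNA:Arg-TCG-3-1, tRNA:Arg-TCG-3-2 and tRNA:Arg-TCG-3-3). The part that read placement had in this was not tested.

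Identical genes could differ in the peaks around them. The sequence of tRNA:Pro-TGG-1-2 printed above is shared by 5 genes, tRNA:Pro-TGG-1-1 to tRNA:Pro-TGG-1-5. Their strongest thresholded peaks had 194.0 at tRNA:Pro-TGG-1-1, 565.4 at tRNA:Pro-TGG-1-2 and 141.6 at tRNA:Pro-TGG-1-5, while tRNA:Pro-TGG-1-3 and tRNA:Pro-TGG-1-4 had no thresholded summit. In replicate 2 the values were 123.7, 342.6, 46.1 and 100.4 at tRNA:Pro-TGG-1-1, 1-2, 1-4 and 1-5, and in replicate 4 they were 69.0 and 229.5 at tRNA:Pro-TGG-1-1 and 1-2. tRNA:Pro-TGG-1-3 had no summit in any list. The 8 Leu-CAG genes, identical to each other as well, had 5 called members, tRNA:Leu-CAG-1-2 to tRNA:Leu-CAG-1-6, while tRNA:Leu-CAG-1-1 and tRNA:Leu-CAG-1-7 had no summit in any list.

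tRNA genes with and without the promoter box patterns were called about equally often. The A box pattern was in 144 genes, of which 25 were called (17.4%), and absent by its letters from 146, of which 23 were (15.8%). The B box pattern (GGTTCGA, any 2 bases, CC) was in 145 genes with 25 called (17.2%) and not in the other 145 with 23 called (15.9%). In the pooled list, 86 genes with the B box pattern had a summit (59.3%, 51.2 to 67%), against 65 without it (44.8%, 37 to 53%). No match says only that these letters are not in the gene, and the B box core was present in nearly every gene.

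The summit windows of tRNA peaks were searched for 3 short motifs on both strands. CAGTG was in 11 of the 33 windows at thresholded tRNA peaks (33.3%, 19.8 to 50.4%), against 42.7% of windows at the 7293 other thresholded peaks. GAGAG, a motif of the GAGA factor, was in 5 (15.2%, 6.65 to 30.9%), against 28.7%, and TATCGAT, most of the motif of the DREF factor, was in 1 (3.03%), against 2.03%. The windows had a median of 61.7% A and T at tRNA peaks, against 64.2% at the others. At the 104 tRNA peaks of the pooled list outside the thresholded one, CAGTG was in 31.7% against 36.5% of other such peaks, and GAGAG in 26% against 25.5%. The tRNA shares were lower for CAGTG in both sets, with intervals that reach the other peaks' values. The direction was not the same in both parts of the thresholded set. With a protein-coding start within 500 bp, CAGTG was in 45.5% of 11 tRNA peaks (21.3 to 72%), against 38.7% of other such peaks. Without one it was in 27.3% of 22 (13.2 to 48.2%), against 44.3%.

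Other genes transcribed by RNA polymerase III include those for 5S ribosomal RNA, part of the large ribosomal subunit. None of 100 annotated 5S genes, 4 of them pseudogenes, had a summit in any list. By counting alone, 0 of 100 would allow a share of up to 3%. That limit holds only for separate genes at which a peak could be seen, and the median 5S gene had 0% unique words around its start. The count therefore sets no limit on binding there, and the part that read placement had in it was not tested. Of the other 10 such genes 1 was called (10%, 1.79 to 40.4%) and 2 had a pooled summit (20%, 5.67 to 51%), against 7.86% and 17.6% of all genes other than tRNA genes, so that these shares were near the background. RNaseMRP:RNA, the RNA of an enzyme that cuts ribosomal RNA precursors, had a thresholded peak (195.3, rank 4998, summit 248 bp downstream). snRNA:7SKa, an RNA that holds an elongation factor inactive, had a summit in the pooled list and in both replicate lists, but not in the thresholded list. The spliceosomal genes snRNA:U6:96Aa, snRNA:U6:96Ab, snRNA:U6:96Ac and snRNA:U6atac, RNaseP:RNA, snRNA:7SKb and the 7SLRNA genes of the signal recognition particle, which had 0% unique words around their starts, had no summit in any list. Among 5 tRNA pseudogenes, 0 were called and 3 had a pooled summit. Small nucleolar RNA genes, short like tRNA genes and often within introns, had 3.35% called and 8.18% in the pooled list, and transposable elements 0.981% and 5.35%.

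Protein-coding genes of the tRNA pathway were called at shares near or below those of protein-coding genes in general, from very small counts. Of 29 genes of the RNA polymerase III machinery, 2 were called: Polr3E, a polymerase subunit gene (1210, rank 274, summit 284 bp upstream), and Brf, a TFIIIB subunit gene (473.6, rank 1560, 387 bp upstream). Bdp1, CG7099 and CG9609 were among those not called, and 4 of the 29 had a pooled summit. Of 22 matched genes of tRNA processing and modification, 2 were called, the Elongator complex genes Elp5 (1059, rank 392) and Elp6 (480.5, rank 1534), while Adat1 and Ddx1 were not. Of 35 aminoacyl-tRNA synthetase genes, which charge tRNAs with amino acids, 1 was called, HisRS (142.1, rank 7160, 463 bp downstream), while AlaRS, AlaRS-m and ArgRS were not. The shares were 6.9%, 9.09% and 2.86% of these lists, against 10.6% of all protein-coding genes. The Polr3E value was higher than that of every tRNA peak but the one at tRNA:Tyr-GTA-1-8.

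Some genes lay close to the 500 bp limit. Just inside it were tRNA:Val-CAC-2-5, whose nearest thresholded summit was 469 bp from its start, and tRNA:Phe-GAA-1-2 at 460 bp. Just outside were tRNA:Leu-CAA-2-2 at 561 bp and tRNA:Leu-TAA-1-1 at 571 bp, and 6 genes in all had their nearest thresholded summit between 500 and 600 bp away, the farthest of them at 590 bp.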

How the data were processed

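Peaks were taken from 4 deposited dm6 lists: an IDR-thresholded list, a pooled list and 1 list for each of replicates 2 and 4. Replicate lists came from 1 alignment each plus 1 further file of unstated kind, the pooled list used both of those alignments, and the other 3 lists fed the thresholded one, per the deposited documentation. The sources used here give no aligner, peak caller, IDR threshold, read length or depth; intervals cover counting error only. The deposited signal value of a peak is a score from the authors' caller and was compared within a list only. A −log10 q-value, deposited for every peak, was left unused. Lists on dm3 were not used, and no coordinate was converted.

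A gene counted as called where a summit lay within 500 bp of its annotated start (Ensembl release 115, BDGP6.54). Tied to this were loci (starts at most 1000 bp apart) and distances to annotated protein-coding transcript starts. The share of 31-base words that occur once was counted over all records of the RefSeq dm6 sequence, which also gave all sequences shown. Shares have 95% Wilson intervals. There was 1 group, so no conditions were compared and no test was run; shares are set beside those of other genes by the same rule. The counting was tested on simulated positions. Alternatives were other windows, lists, list lengths, single replicates, overlap rules and locus gaps; the ncRNA distance classes, the B box core, the sparse-neighbour and far-gene profiles and the background under other settings were added after seeing the data.

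Named tRNA genes were those at the 12 strongest thresholded peaks, the strongest called gene of each isotype, the 5 strongest over 1000 bp from a protein-coding start, the largest 3 loci (with a tie) and the genes at the edges of the 500 bp limit; others are said to be chosen afterwards or share a sequence or property with them. The members and the 4 gene lists were chosen with earlier results of these data known. Of the tRNA processing symbols, 2 did not match the annotation. Python 3.11.15, pandas 2.3.3, NumPy 2.4.6, SciPy 1.17.1 and matplotlib 3.10.9 were used.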

Additional observations from a re-analysis of the deposited data

How the results depend on the processing

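The number of called tRNA genes, 48, was 31 within 250 bp, 19 with the stronger 50% of the thresholded peaks, 151 in the pooled list and 27 where the peak had to overlap the gene; with the strongest peaks of 1 replicate in place of the thresholded list it ranged from 41 to 62. The 33 distinct peaks became 13 with the stronger 50% and 137 in the pooled list (27 to 43 with 1 replicate), and the 30 called loci 13 and 88 (23 to 36). Called genes with no protein-coding start near the summit, 37, were 22 within 250 bp, 11 with the stronger 50%, 133 in the pooled list and 21 by overlap (34 to 47). The median signal value moved to 379.0 with the stronger 50%. The median offset of 40.5 bp turned to -6 bp without replicate 2 and was 38 bp without replicate 4. In the full replicate lists the signs were the other way, with -11.5 bp in replicate 2 and 19 bp in replicate 4. The side of the start thus changed with list length as well as with the library, and the cause was not tested. The share near protein-coding starts, 34.4%, was 18.8% with the stronger 50% (21.9 to 43.8% with 1 replicate). Far from them, 13.2% became 7.19% within 250 bp and also by overlap, 21.6% within 1000 bp, 2.99% with the stronger 50% and 56.3% in the pooled list (10.8 to 16.2%). The 111 genes in both replicates were 31 among the strongest peaks of each and 73 within 250 bp. All other genes stood at 4.78% within 250 bp, 11.5% within 1000 bp and 4.4% with the stronger 50%. The tRNA share remained above that of other genes with either replicate alone, where these stood at 9.15% in replicate 2 and 7.54% in replicate 4. Of the recomputed values for tRNA genes, 45 stayed within the limits set, 21 moved and 1 reversed. The recomputed shares of all other genes are not in these counts. No paired analysis was possible because there was 1 group. Depth is unknown, there were 2 replicates, and no control library was analysed here; whether the authors' caller used one is not stated.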
